A study of Mus musculus with 2 samples.

Results

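Emp2, Fxyd2, Dennd5b, Ccnb1ip1 and Uchl1 were the 5 genes described here, of 32544 in the gene table, in a pair of single-cell mRNA sequencing (scRNA-Seq) libraries of bone marrow-derived monocytes (BMDMs). Their rows were found by gene symbol in both libraries, in cells with at least 500 genes and at most 10% mitochondrial unique molecular identifiers (UMIs). They were selected on their low mutant over control ratios in these same cells, so that ratio is given as a description and supports nothing. The control library carried the genotype CONTROL and the mutant library LysM-Cre;Arid1afl/fl, in which a recombinase made from the myeloid Lyz2 gene cuts floxed Arid1a. Both cultures received M-CSF at 50 ng/ml together with RANKL at 100 ng/ml, and the study's methods give mice of 4 to 6 weeks and collection 24 h after RANKL. The control genotype is not spelled out, so whether control animals carried the Cre or the floxed alleles is not known here. LysM-Cre acts in myeloid cells at large and need not recombine every allele in every cell. There was 1 library per genotype, and the labels do not say how many mice went into it. No test across samples was therefore possible. The cells kept were 6269 control cells with a median of 23978 UMIs and 5663 mutant cells with a median of 21734, and 7 of their barcodes occurred in both libraries. The monocyte and macrophage markers Csf1r and Cd68 were present in both, at 256 and 469 CPM (UMIs of a gene per 1000000 UMIs) in the control and 402 and 603 CPM in the mutant library. Neutrophil genes were counted too, with S100a8 at 111 and 880 CPM.

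Arid1a is the DNA-binding subunit of the canonical BAF complex, which moves nucleosomes and opens chromatin at enhancers and promoters. RANKL drives cycling monocytic precursors toward osteoclasts (OCs), which leave the cell cycle and switch on resorption genes. None of the 5 genes is a classical OC marker. Emp2 encodes a tetraspan membrane protein of the EMP/PMP22 family, and Fxyd2 the gamma subunit that tunes the Na,K-ATPase. Dennd5b encodes a DENN-domain protein, from a family that activates Rab GTPases in membrane traffic. Ccnb1ip1, also called Hei10, encodes an E3 ligase needed for meiotic crossovers, and Uchl1 a deubiquitinase best known from neurons.

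The 5 genes lie on 5 chromosomes, all away from Arid1a on chromosome 4 (GRCm39, GENCODE M39). Emp2 is at chr16:10099459-10131832 on the minus strand. Fxyd2 is at chr9:45310967-45322004 on the plus strand. Dennd5b is at chr6:148889569-149003390 on the minus strand. Ccnb1ip1 is at chr14:51026696-51045263 on the minus strand. Uchl1 is at chr5:66832748-66845009 on the plus strand. Ccnb1ip1 overlaps Parp2 on the opposite strand, and whether counting used the strand was not stated, so reads of this pair could be mixed. Parp2 had 4318 control and 3735 mutant UMIs, a log2 ratio of 0.11. Uchl1os, opposite Uchl1, had 0 UMIs in either library, and Emp2 overlaps no annotated gene.

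Because the 5 genes were low together, the 250 bases before each canonical transcript start were searched on both strands for short motifs of factors named in macrophages and OCs. The Emp2 window is shown because it was the only one of the 5 with no base in an annotated exon. In the windows of Fxyd2, Dennd5b and Ccnb1ip1 all 250 bases, and in that of Uchl1 222 of 250, lie in exons of other annotated transcripts, so those 4 need not be upstream promoters. The Emp2 window runs from chr16:10131833-10132082 (GRCm39, minus strand, 5′ to 3′), has 62.8% G and C bases, and its capitals mark the GC-box letters GGGCGG or their complement.

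Emp2: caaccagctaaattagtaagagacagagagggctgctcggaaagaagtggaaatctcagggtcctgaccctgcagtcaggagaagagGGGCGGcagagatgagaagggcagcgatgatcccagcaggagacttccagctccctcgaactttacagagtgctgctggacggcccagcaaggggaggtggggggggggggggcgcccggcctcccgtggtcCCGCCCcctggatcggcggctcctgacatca

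The GC box was found before Emp2 and Uchl1, and in 51.8% of the 5216 windows of genes averaging 20 CPM or more over the libraries. The PU.1 core GAGGAA was found before Dennd5b and Uchl1 (24.2% of windows) and the NFAT core GGAAAA before Dennd5b (21.3%). The E-box CACGTG was found before Fxyd2 (8.78%) and TATAAA before Uchl1 (7.21%). The AP-1 letters TGANTCA (4.26%) and the CRE letters TGACGTCA (2.43%) were in none of the 5 windows. No searched motif was in more than 2 of these 5 windows. These are matches of letters only, and reads of a 3′ kit do not show which start a transcript used.

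Levels are UMIs of a gene summed over cells and scaled to 1000000 UMIs of those cells (CPM). Their 95% Poisson intervals, and the intervals of log2 ratios and shares, cover counting error only, and they treat the UMIs of a cell as independent. Arid1a itself had 51.9 CPM in the control and 20.4 CPM in the mutant library, a log2 ratio of -1.35 (-1.41 to -1.28). Transcripts of a recombined allele that keep their 3′ end are still counted, so remaining Arid1a UMIs do not mark an intact allele.

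Emp2 had 99.0 CPM in the control library and 6.50 CPM in the mutant library, from 16202 and 854 UMIs. Its log2 ratio of -3.93 (-4.03 to -3.83) was the lowest of the 5219 genes averaging 20 CPM or more. Fxyd2 had 38.99 and 3.33 CPM, a log2 ratio of -3.55 (-3.69 to -3.41). Dennd5b had 43.9 and 5.78 CPM, a log2 ratio of -2.92 (-3.03 to -2.82). Ccnb1ip1 had 34.8 and 5.01 CPM, a log2 ratio of -2.80 (-2.91 to -2.68), and its mean of 19.9 CPM lay just under that minimum. Uchl1 had 133 and 22.7 CPM, a log2 ratio of -2.54 (-2.60 to -2.49), and kept the highest mutant level. All 5 were thus at -1 or below, as selected, while 1.13% of the 5219 genes were in that range and 5.65% were at 1 or above. Between them in rank stood Mmp9, a secreted OC protease, at -3.26. The next genes after Uchl1 were Bbs9, a ciliary trafficking gene, at -2.36, and Spp1, which encodes osteopontin, at -2.34. The median over all tested genes was 0.02.

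The next question was which control cells expressed them. Each cell was thinned to 5000 UMIs. The OC gate took cells in which Dcstamp, Acp5, Ctsk and Mmp9 together reached 3 UMIs, and the cycling gate those in which Cdk1, Aurka, Top2a and Mki67 did so. In the control library 3380 cells were in neither gate, 2120 in the cycling gate only, 340 in the OC gate only and 261 in both. All 5 genes were present in each of these states, and their order across the states differed from gene to gene.

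Emp2 had 85.8 CPM in control cells of neither gate, 98.5 in cycling cells, 155 in OC-gate cells and 167 in cells of both gates. It was thus high in OC-gate cells whether or not they cycled. Dennd5b had 39.3, 39.3, 84.5 and 74.7 CPM in the same order, and Ccnb1ip1 29.8, 32.1, 67.7 and 65.2 CPM. Both were roughly level between neither-gate and cycling cells and higher in either kind of OC-gate cell. Fxyd2 had 39.3, 37.1, 52.4 and 35.0 CPM, so its higher value stood in the OC-gate cells that did not cycle. Uchl1 had 129, 134, 144 and 143 CPM and varied little.

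For all OC-gate cells over cells of neither gate, the control log2 ratio was 1.16 for Ccnb1ip1 (1.06 to 1.26), 1.02 for Dennd5b (0.93 to 1.11) and 0.90 for Emp2 (0.84 to 0.97). It was 0.17 for Fxyd2 (0.05 to 0.28) and 0.15 for Uchl1 (0.09 to 0.21). Over 5218 genes the median was 0.10 and the 95th percentile 0.68, so Emp2, Dennd5b and Ccnb1ip1 lay above that percentile while Fxyd2 and Uchl1 did not. Ccnb1ip1 and Dennd5b passed a log2 ratio of 1, as did 1.74% of all genes. The 39 Fxyd2 UMIs of a single cell among 816 in the gate moved its ratio to 0.10 when that cell was left out (-0.01 to 0.22).

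The difference was graded with the OC transcripts of a cell. With 0, 1, 2, 3 to 5, and 6 or more OC-marker UMIs, control Dennd5b had 37.4, 43.4, 53.3, 71.9 and 87.9 CPM, a higher value at each step. Ccnb1ip1 had 28.2, 36.5, 49.1, 66.5 and 66.6 CPM, with its last values alike. Emp2 had 83.2, 113, 138, 169 and 152 CPM, with its highest value in the next to last class. Fxyd2 went only from 37.3 to 46.1 CPM, and Uchl1 from 130 to 148 CPM. Yet most UMIs of all 5 genes were outside the OC gate, since it held 9.85% of control cells. Its cells held 21.6% of control Ccnb1ip1 UMIs, 20.6% for Dennd5b, 18.3% for Emp2, 12.8% for Fxyd2 and 12.2% for Uchl1, against 11.3% of all UMIs.

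The cycling state by itself moved the 5 genes little. In control cells of the cycling gate only, the log2 ratio over neither gate was 0.20 for Emp2 (0.15 to 0.25), 0.10 for Ccnb1ip1 (0.02 to 0.19) and 0.05 for Uchl1 (0.01 to 0.09). It was -0.09 for Fxyd2 (-0.16 to -0.01), and Dennd5b had 39.3 CPM on both sides. The median over all genes was 0.05. Split by lists of G1/S and G2/M genes, control Emp2 had 84.3 CPM with neither list, 102 with G1/S genes only, 105 with both and 83.6 with G2/M genes only. Emp2 was thus higher around S phase. Ccnb1ip1 had 28.5, 36.2, 36.6 and 30.7 CPM in that order, the same shape at a lower level. Fxyd2 had its highest value, 45.2 CPM, in cells with neither list.

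**Figure D1:**
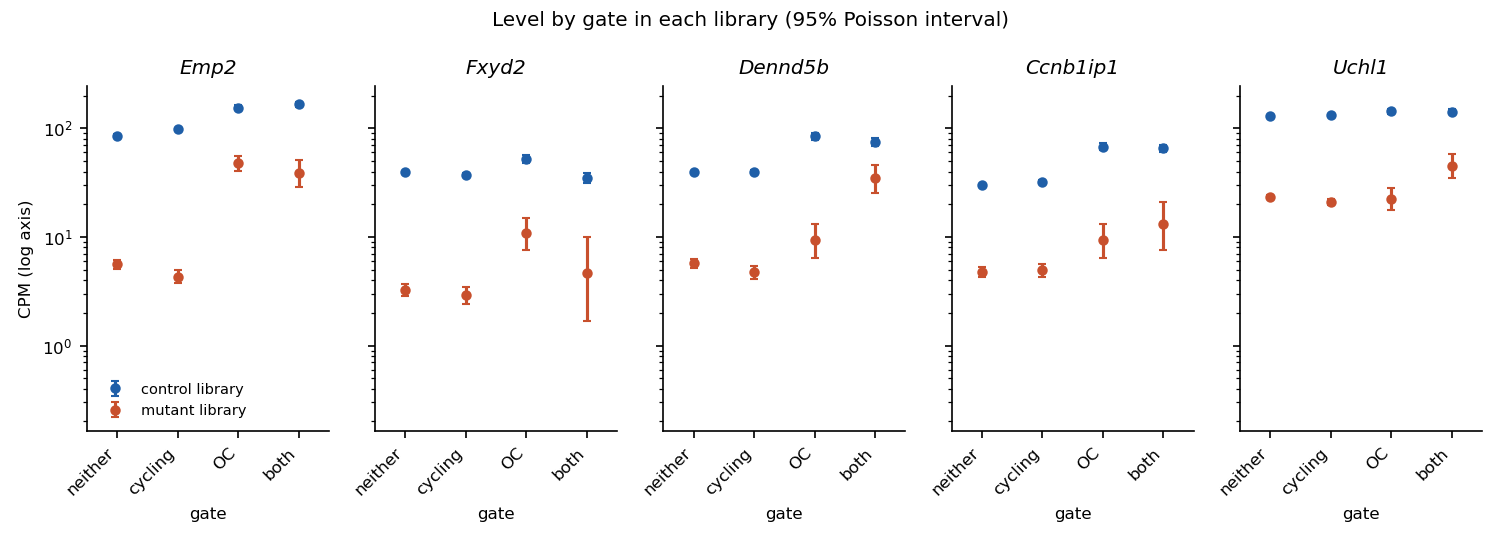
Level of each gene in CPM on a log axis in cells of neither gate, the cycling gate only, the OC gate only and both gates, with 95% Poisson intervals, for the control library (blue) and the mutant library (red). Control Emp2, Dennd5b and Ccnb1ip1 sat higher in either kind of OC-gate cell, and every mutant point lay below its control point, with Emp2 in OC-gate cells (47.5 CPM) the member nearest to its control level in cells of the OC gate only.

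In the mutant library the 5 genes were low in every state. Cells of neither gate (3397), the cycling gate only (1737), the OC gate only (133) and both gates (45) were compared with the same control states. In cells of neither gate, mutant levels were 5.61 CPM for Emp2, 3.26 for Fxyd2, 5.70 for Dennd5b, 4.76 for Ccnb1ip1 and 23.3 for Uchl1. The log2 ratios there ran from -3.93 for Emp2 to -2.47 for Uchl1, close to those of the whole libraries. The low values were thus also found outside the OC gate, which held 3.35% of mutant cells. In OC-gate cells they ran from -2.68 for Ccnb1ip1 (-3.13 to -2.27) to -1.84 for Emp2 (-2.05 to -1.63). The gate did not take cells with equal OC transcripts. Mmp9 had 113 CPM in mutant and 353 CPM in control OC-gate cells, and Ctsk 258 and 387 CPM. In cells of both gates Ctsk was instead higher in the mutant library, at 447 against 351 CPM. The part of these differences in the OC-gate ratios was not tested.

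Among the 5 genes, Emp2 stood out within the mutant library by its level in OC-gate cells. It had 47.5 CPM in cells of the OC gate only and 38.4 in cells of both gates, against 5.61 in cells of neither gate, and went from 4.54 CPM in cells without OC-marker UMIs to 91.4 CPM (75.4 to 110) in the 44 cells with 6 or more. The log2 ratio of OC-gate over neither-gate cells was 3.0 (2.76 to 3.24), which exceeded the control ratio by 2.10 (1.85 to 2.34). These Emp2 UMIs came from 42 of 178 OC-gate cells. Without the cell with the most, which held 20 of the 208 UMIs, the excess was 1.97 (1.72 to 2.23). OC-gate cells held 24.4% of all mutant Emp2 UMIs. Over all genes the 95th percentile of the mutant ratio was 0.49. Of genes outside the 5, Mmp9 and the interferon-responsive gene Ly6a also had an excess, of 1.99 and 1.74, and Ctsk had -0.34. Mmp9 is a gate gene, so its ratios follow in part from the gate. For Ly6a the mutant ratio was -0.04 and the control ratio -1.78, so its excess came with a low control ratio. These genes therefore do not show whether an excess like that of Emp2 occurs elsewhere, which was not tested.

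For the other 4 genes the interval of that excess took in 0 once the largest cell was left out. Mutant Fxyd2 had a ratio of 1.48 (0.97 to 1.95), but 24 of its 42 UMIs were in 1 cell, and without it the ratio was 0.26 (-0.52 to 0.95) and the excess over control 0.16 (-0.54 to 0.86). Dennd5b had a ratio of 1.53 (1.16 to 1.88), an excess of 0.50 (0.14 to 0.86), which was 0.31 (-0.07 to 0.70) without its largest cell. Its higher level stood in the 45 cells of both gates, at 34.6 CPM (25.2 to 46.3), and not in the OC gate only, at 9.32 CPM (6.33 to 13.2). Ccnb1ip1 had a ratio of 1.12 (0.66 to 1.56) and an excess of -0.03 (-0.48 to 0.41). Uchl1 had 0.31 (0.05 to 0.57) and 0.16 (-0.10 to 0.42). Leaving out the largest cell was chosen after the data were seen.

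The mutant library also had fewer cells with each transcript. At 5000 UMIs per cell, Emp2 was detected in 32.9% of control and 2.35% of mutant cells, and Uchl1 in 39.9% and 8.02%. Fxyd2 was detected in 14.9% and 1.45%, Dennd5b in 17.9% and 2.18%, and Ccnb1ip1 in 14.0% and 1.94%. Over all UMIs the Emp2 share was 70.5% in the control library (69.3 to 71.6%), and in the mutant library 6.34% (5.72 to 7.01%). The unthinned mutant share was 4.87% for Fxyd2, 7.89% for Dennd5b, 9.41% for Ccnb1ip1 and 22.3% for Uchl1.

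Cells with at least 1% of their UMIs in the neutrophil genes S100a8, S100a9, Camp and Ngp served as a guide to free RNA in the droplets. In the mutant library 0 of 89 such cells had an Emp2 or Fxyd2 UMI, which allows a share of up to 3.37% by 3 counts of 89 and 4.06% by the Clopper-Pearson limit, and 1 of 89 had a Uchl1 UMI (1.12%), at a median of 9907 UMIs. A Dennd5b UMI was in 4 of them (4.49%) and a Ccnb1ip1 UMI in 1 (1.12%). The mutant Dennd5b level in all cells, 5.78 CPM, lay inside the interval of its level in these cells (4.34 CPM, 1.41 to 10.1). Those 5 UMIs are too few to tell the levels apart, and whether these cells express Dennd5b themselves was not tested. Across the mutant library 74 cells held 3 or more Dennd5b UMIs, where depth alone would give 4.05. In the control library 4 of 19 such cells had a Uchl1 UMI (21.1%) 2 an Emp2 UMI (10.5%) and 2 a Fxyd2 UMI, at a median of 7523 UMIs. The Uchl1 level in these 19 cells, 84.3 CPM (48.2 to 137), could not be told from the 133 CPM of the control library. Nor could that of Fxyd2, 26.3 CPM (8.55 to 61.5), be told from its 38.99 CPM, while that of Emp2 was lower than its 99.0 CPM, at 10.5 CPM (1.28 to 38.1). The 16 Uchl1 UMIs were in 4 of the 19 cells, and the 5 Fxyd2 UMIs in 2. Intervals that treat UMIs as independent may thus be too narrow here, and 19 cells cannot show which of these UMIs were free RNA.

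Mutant UMIs of the 5 genes were bunched in few cells. If the UMIs had followed only the depth of each cell, the 1% of mutant cells with the most Emp2 UMIs (57 cells) would hold 14.1% of them, and they held 49.4%. The same share was 49.3% for Fxyd2 (17.9% by depth), 35.8% for Dennd5b (15.6%), 24.4% for Ccnb1ip1 (15.9%) and 21.6% for Uchl1 (7.05%). In the control library it was between 7.24% for Uchl1 (3.98% by depth) and 15.2% for Fxyd2 (5.47%). Control cells were thus uneven as well, and Fxyd2 the most uneven of the 5 there. A share of UMIs in the top cells is larger for a gene with fewer UMIs, which the values by depth include.

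**Figure D2:**
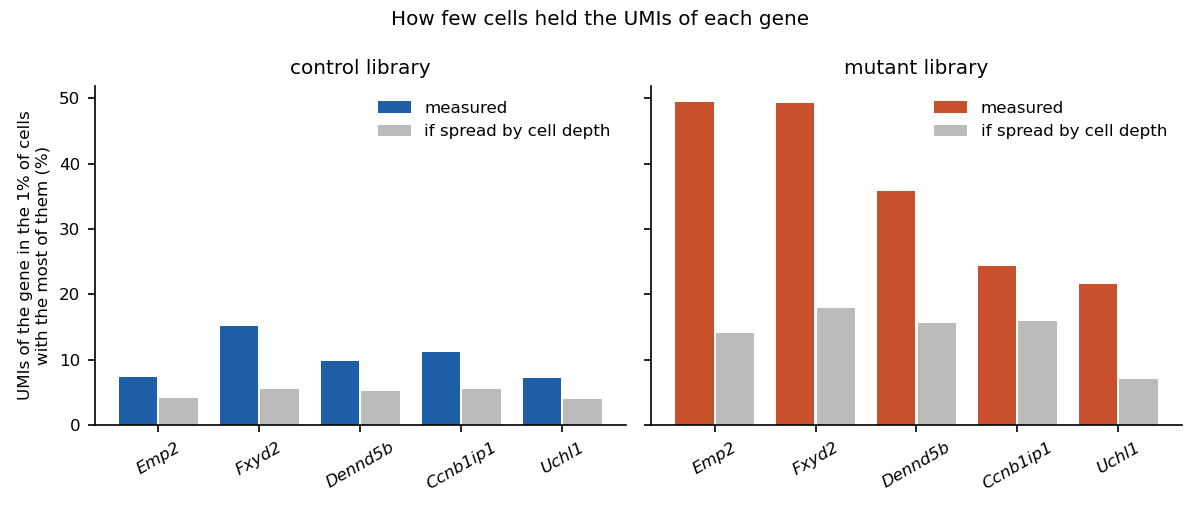
Percent of the UMIs of each gene held by the 1% of cells with the most of them, as measured (colour) and as depth per cell alone would give (grey), in the control and the mutant library. Measured bars exceeded grey ones for every gene in both libraries, and reached 49.4% for Emp2 and 49.3% for Fxyd2 in the mutant library.

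A small set of mutant cells held several Emp2 UMIs each. At least 3 Emp2 UMIs were found in 97 mutant cells, where depth alone would give 5.62, while the other 5566 had 2.43 CPM of Emp2. The cells were chosen on Emp2, so their Emp2 level follows from that choice, and the other 4 genes were then read in them. Uchl1 had 115 CPM in the 97 cells (103 to 128) against 20.5 CPM in the rest, which is near the 115 CPM of control cells with under 3 Emp2 UMIs and below the 154 CPM of those with 3 or more. Fxyd2 had 27.1 CPM (21.6 to 33.6) against 2.76, and Dennd5b 30.7 CPM (24.8 to 37.5) against 5.19. Few cells carried Fxyd2, since 13 of the 97 held its 83 UMIs, 1 of them held 27, and the OC-gate cell with 24 was another. Without the cell with the most, a step added after the data were seen, Fxyd2 had 18.4 CPM (13.9 to 23.9), Dennd5b 28.1 CPM and Uchl1 108 CPM (97.0 to 121). Ccnb1ip1 differed less, with 12.4 CPM (8.77 to 17.0) against 4.84. Without the cell with the most, an OC-gate cell with 8 of its 38 UMIs, Ccnb1ip1 had 9.90 CPM (6.68 to 14.1). In control cells split in the same way, Uchl1 had 154 and 115 CPM, Dennd5b 49.6 and 39.2 CPM, and Fxyd2 38.8 and 39.1 CPM.

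Among the 97 cells 30 were in the OC gate (30.9%, 21.9 to 41.1%), against 2.84% of the other mutant cells. Outside the gate, the 67 remaining cells still had 145 CPM of Uchl1, 27.5 CPM of Fxyd2 and 30.4 CPM of Dennd5b, so these levels were not confined to OC-gate cells. Inside the gate Uchl1 had 50.0 CPM. Arid1a had 30.3 CPM (24.5 to 37.2) in the 97 cells against 20.2 CPM in the rest, and 44 of the 97 had no Arid1a UMI. Ly6a, an interferon-responsive surface antigen that was high in the mutant library, had 1177 CPM in the 97 cells and 1193 CPM in the rest, against 52.5 CPM in the control library. The monocytic genes Lgmn and Adgre1 had 242 and 268 CPM in the 67 cells outside the gate. They had 544 and 534 CPM in the whole mutant library, and 129 and 147 CPM in the control library. None of the 97 barcodes occurred in both libraries (0 of 97), 5 were called doublets, and their median depth was 28499 UMIs against 21652.5 in the rest. The part of depth and of doublets in these levels was not tested.

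**Figure D3:**
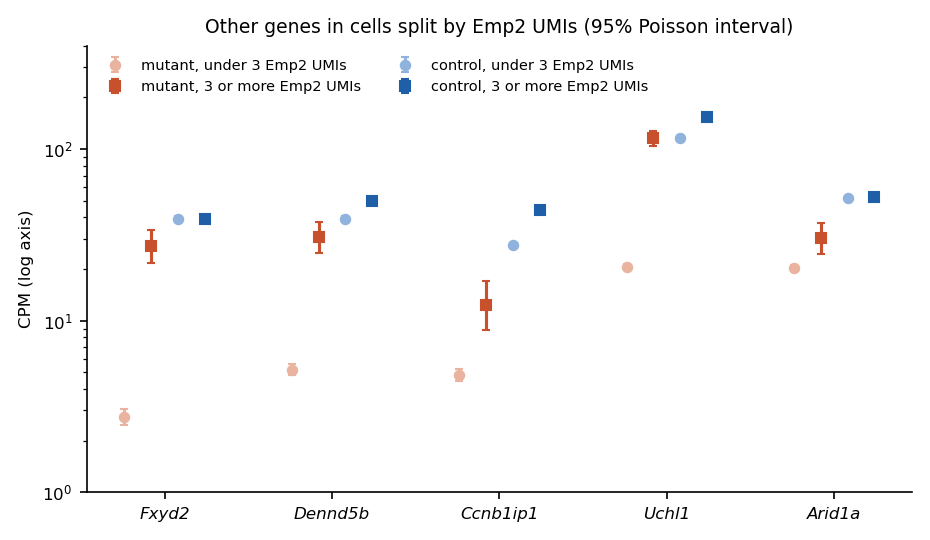
CPM on a log axis of Fxyd2, Dennd5b, Ccnb1ip1, Uchl1 and Arid1a in cells with under 3 (pale circles) and with 3 or more (dark squares) Emp2 UMIs, in the mutant (red) and control (blue) libraries, with 95% Poisson intervals. Uchl1 in the 97 mutant cells (115 CPM) lay at the level of control cells with under 3 Emp2 UMIs and below the 154 CPM of those with 3 or more, and mutant Fxyd2, Dennd5b and Ccnb1ip1 (12.4 CPM) lay below both control classes.

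Cells chosen on the other genes were less alike. The 336 mutant cells with at least 3 Uchl1 UMIs had 28.1 CPM of Emp2 (25.1 to 31.4) against 4.47 in the rest. The 74 with at least 3 Dennd5b UMIs had 47.5 CPM of Emp2 (39.4 to 56.9) against 5.70, and 3.59 CPM of Fxyd2 against 3.33. The 23 with at least 3 Fxyd2 UMIs had 50.0 CPM of Emp2 (35.6 to 68.4) against 6.24. The 26 with at least 3 Ccnb1ip1 UMIs had 4.24 CPM of Emp2 (1.15 to 10.8) against 6.51 and 20.1 CPM of Uchl1 against 22.7. Leaving out the cell with the most UMIs of the gene read was a step added after the data were seen. Emp2 then had 25.3 CPM (22.4 to 28.4) in the Uchl1 cells and 35.0 CPM (28.0 to 43.2) in the Dennd5b cells. In the Fxyd2 cells it had 35.9 CPM (23.7 to 52.2), where 8 of the 23 cells had held its 39 UMIs. Emp2 was thus higher in cells chosen on Uchl1, Dennd5b or Fxyd2, but not in those chosen on Ccnb1ip1. Dennd5b was higher in the Ccnb1ip1 cells, at 19.1 CPM (11.3 to 30.1) against 5.68. Without the cell with the most Dennd5b UMIs it had 12.9 CPM (6.43 to 23.0) there. Called doublets were 27 of the 336 Uchl1 cells, 10 of the 74 Dennd5b, 5 of the 23 Fxyd2 and 3 of the 26 Ccnb1ip1 cells. They were 275 of all 5663 mutant cells. Median depth was 29644.5, 29893.5, 28375 and 35543 UMIs in that order, against 21734 in the mutant library. The part of depth and of doublets was not tested.

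At 5000 UMIs per cell, 77 mutant cells held UMIs of 2 or more of the 5 genes, where independent detection would give 43.9, and 12 held 3 or more, where it would give 1.11. In the control library 617 cells held 3 or more against 516. No member was detected in 85.8% of mutant and 26.7% of control cells at this depth. By all UMIs, 121 mutant cells held 3 or more members. Of these, 16.5% were in the OC gate (10.4 to 24.4%) against 2.92% of cells with none, but they were also deeper (median 34208 UMIs against 18858.5) and 14.9% were called doublets against 3.05%. Depth and doublets thus moved with this count, and their part was not tested. Over single cells the Pearson correlation of any pair of members was at most 0.08 in the control library and 0.14 in the mutant library.

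Mutant cells were next split by their own Arid1a UMIs, to ask whether cells with Arid1a transcripts kept the 5 genes. With 0, 1, 2, and 3 or more Arid1a UMIs there were 3702, 1431, 401 and 129 cells. Emp2 had 5.85, 6.70, 7.71 and 11.8 CPM in these classes, and Dennd5b 5.10, 5.26, 8.75 and 12.8 CPM. Uchl1 had 20.9, 22.3, 30.1 and 34.6 CPM. These 3 genes were higher with more Arid1a UMIs, yet remained far under the control library. Ccnb1ip1 had 5.06, 5.11, 4.61 and 4.54 CPM and Fxyd2 3.21, 3.54, 3.90 and 2.06 CPM, with no order beyond their intervals.

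With at least 2 Arid1a UMIs against none, the log2 ratio was 0.95 for Dennd5b (0.68 to 1.22), 0.59 for Emp2 (0.32 to 0.86) and 0.58 for Uchl1 (0.44 to 0.72). It was 0.08 for Fxyd2 (-0.36 to 0.49) and -0.14 for Ccnb1ip1 (-0.51 to 0.21). None of the 5 reached 1 (0 of 5), which 0.0383% of all genes did, and the 95th percentile over all genes was 0.23. With called doublets removed Dennd5b had 1.00, and with Arid1a itself read at 5000 UMIs, 1 or more against none, Uchl1 turned to -0.0521. Fxyd2 turned to -0.38 (-0.88 to 0.09) without a cell that held 16 of its 59 UMIs. The same split of control cells gave 0.04 for Emp2 (-0.02 to 0.09), -0.01 for Dennd5b (-0.09 to 0.07), -0.01 for Uchl1, -0.04 for Ccnb1ip1 and -0.20 for Fxyd2 (-0.28 to -0.11). Even mutant cells with 3 or more Arid1a UMIs were below control cells of that class, by log2 ratios from -4.13 for Fxyd2 (-5.19 to -3.24) to -1.75 for Dennd5b (-2.14 to -1.38).

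**Figure D4:**
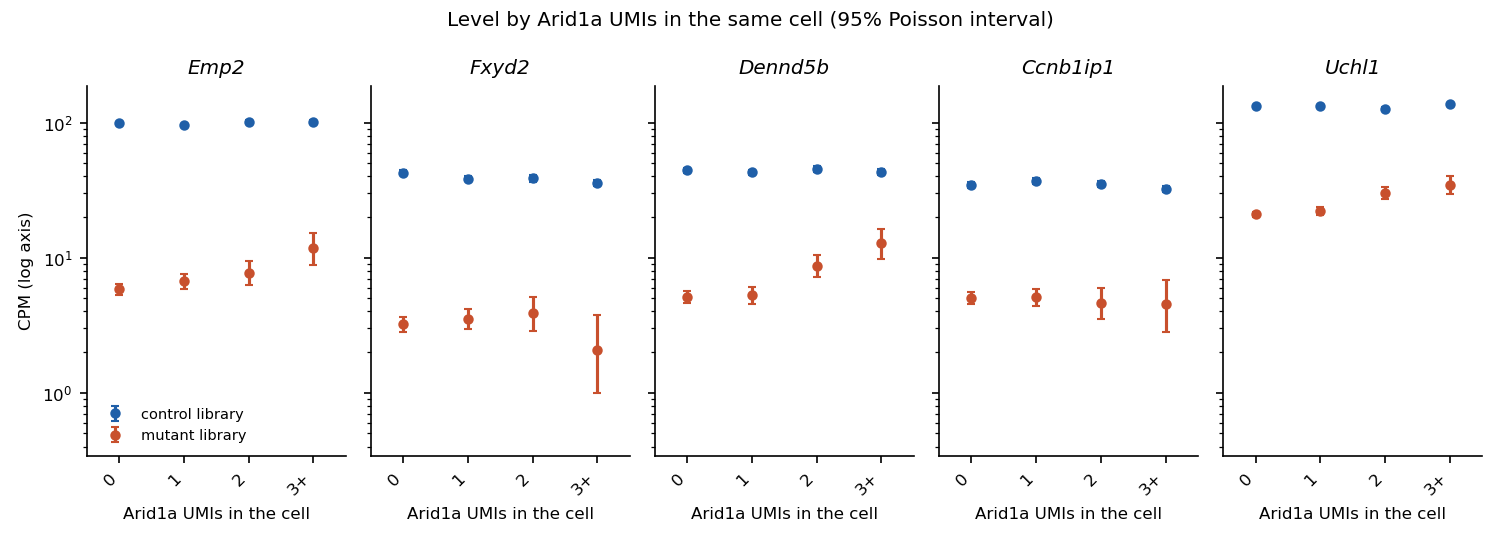
Level of each gene in CPM on a log axis by the number of Arid1a UMIs in the same cell, with 95% Poisson intervals, in the control library (blue) and the mutant library (red). Control levels were nearly flat, mutant Emp2, Dennd5b and Uchl1 were higher in cells with 3 or more Arid1a UMIs (11.8, 12.8 and 34.6 CPM), and every mutant point stayed below its control point.

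Where Arid1a UMIs and the OC gate were crossed, the gene that moved was not the same. Among OC-gate cells with at least 2 Arid1a UMIs (21 cells), Dennd5b had 46 UMIs in 10 cells and a log2 ratio of 3.90 over OC-gate cells with none (2.74 to 5.29). Uchl1 had 56 UMIs in 13 cells and a ratio of 2.60 (1.85 to 3.4). Without the cell with the most, the ratio was 3.55 (2.36 to 4.97) for Dennd5b and 2.42 (1.64 to 3.24) for Uchl1. That step was added after the data were seen, and the Uchl1 cell left out, with 11 UMIs, was a called doublet. Emp2 had a ratio of 0.33 (-0.19 to 0.82), since it was high in OC-gate cells with or without Arid1a UMIs. In cells of the OC gate only it had 54.3 CPM (43.5 to 67.0) with no Arid1a UMI and 55.0 CPM (35.9 to 80.6) with at least 2. Outside the OC gate the log2 ratio for at least 2 Arid1a UMIs against none was 0.59 for Dennd5b, a comparison chosen after the data were seen. In cells of neither gate, Uchl1 had 34.4 CPM (30.7 to 38.4) with at least 2 Arid1a UMIs and 21.7 CPM (20.4 to 23.1) with none. Mmp9, an OC-gate gene, also had 18.2 CPM in the cells with at least 2 Arid1a UMIs and 3.54 CPM in those with none. In the mutant library Arid1a had 37.6 CPM in cells of both gates and 21.0 CPM in the OC gate only. Dennd5b differed the same way, at 34.6 and 9.32 CPM, so a split of OC-gate cells on Arid1a also moves with cycling. Cells with more Arid1a UMIs are also deeper, and the parts of cycling, OC transcripts and depth were not tested.

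Relatives of the 5 genes were read in the same way. Of 39 that are reported here, in the EMP/PMP22, FXYD, DENN, meiotic crossover and UCH lists, 38 were in the gene table and 11 averaged 20 CPM or more. Of those 11, 0 were at a log2 ratio of -1 or below (1.13% of all genes) and 0 at 1 or above (5.65%), which is near the shares over all genes, and their median was 0.31. Of the EMP/PMP22 family, Emp1 had -0.01 (-0.05 to 0.03), Emp3 0.19 and Pmp22 0.25. Of the FXYD family, Fxyd5 had 0.58 and was the only relative to average 20 CPM.

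The 5 expressed DENN genes other than Dennd5b ranged from 0.31 for Dennd6a to 0.92 for Dennd4c, and its nearest relative Dennd5a had 0.45. Of the UCH deubiquitinases, Uchl3 had -0.81 and Uchl5 -0.30. None of the 9 listed meiotic crossover genes averaged 20 CPM.

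**Figure D5:**
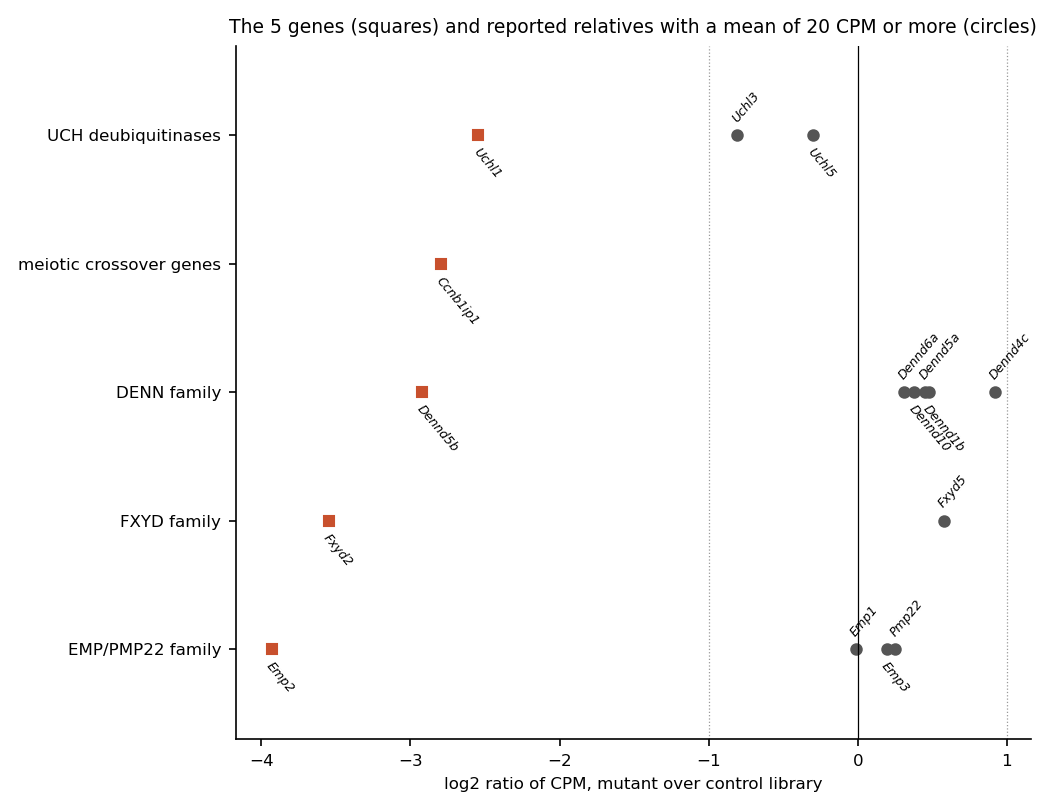
Log2 ratio of CPM, mutant over control library, of the 5 genes (squares) and of their reported relatives averaging 20 CPM or more (circles), by family, with dotted lines at -1 and 1. The 11 relatives drawn lie between -0.81 and 0.92, and the 5 DENN relatives lie between 0.31 and 0.92.

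Genes next to the 5 in the genome were listed as well. Within 500 kb, 15 neighbours averaged 20 CPM or more, of which 0 were at -1 or below (1.13% of all genes) and 1 was at 1 or above (5.65% of all genes), Rnase4 near Ccnb1ip1 at 1.95. These counts are near the shares over all genes and say nothing particular of the neighbours. Nubp1 near Emp2 had -0.55 (-0.59 to -0.51), Cep164 near Fxyd2 -0.22 and Apbb2 near Uchl1 -0.11. Near Dennd5b, Sinhcaf had -0.42, Ipo8 0.25 and Resf1 0.53.

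Across 50 groups of control cells made by k-means, the genes most like each of the 5 were named by Pearson correlation of log2(CPM + 1), as a description. The groups share a library, and the smallest held 10 cells, so the correlation over the 39 groups of at least 50 cells is given after it. For Emp2 they were Eif3c (0.89, then 0.82), Tnfrsf11a, which encodes the RANKL receptor (0.89, then 0.86), and the guidance receptor gene Nrp2 (0.88, then 0.87). For Dennd5b they were Usp10 (0.92, then 0.76), Wdr75 (0.91, then 0.79) and the H3K79 methyltransferase gene Dot1l (0.90, then 0.75). For Ccnb1ip1 they were Immt (0.86, then 0.76), Bzw2 (0.83, then 0.91) and the chaperonin subunit gene Cct4 (0.83, then 0.88). For Uchl1 they were Zmiz2 (0.93, then 0.44), the lamin gene Lmna (0.92, then 0.64) and S100a4 (0.91, then 0.41). For Fxyd2 they were Mdp1 (0.96, then 0.41), Gkap1 (0.92, then -0.17) and Atxn3 (0.90, then -0.26), so these rested on groups of few cells. Over single cells no correlation of these 15 genes with their member exceeded 0.20.

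Among the 5 genes themselves, over the 39 groups of at least 50 cells, Ccnb1ip1 and Dennd5b had a correlation of 0.86, Ccnb1ip1 and Emp2 0.80, and Dennd5b and Emp2 0.79. Fxyd2 had between -0.19 and -0.09 with each of the other 4.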

How the data were processed

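UMI counts per gene and cell barcode were deposited for each library and, per the file headers, were made by the authors with Cell Ranger 6.1.0. Per the submitters' processing notes the genome was GRCm39. Whether the counts precede the aggregation that the methods name was not stated, and aggregation can subsample reads. The members and gene lists were chosen with earlier results of these data known.

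Cells with at least 500 genes and at most 10% mitochondrial UMIs were kept, which left out 186 control and 202 mutant barcodes. Kept cells held 163618835 control and 131469887 mutant UMIs. Doublets were called by simulation (333 and 275 barcodes) and kept, with their removal as an alternative. Thinning to 5000 UMIs left out 168 control and 351 mutant shallower cells. CPM came from summed counts. Intervals are 95% exact Poisson, exact conditional (log2 ratios) and Clopper-Pearson (shares), and those of a difference of log2 ratios are normal approximations. Functions were tested on simulated data. Genes averaging 20 CPM or more over the libraries were ranked. Of 32544 gene identifiers 31977 matched GENCODE M39. Named genes were the 5 members, Arid1a, the next genes in rank, listed relatives, expressed neighbours within 500 kb, and 3 most correlated genes per member. Genes outside these, such as Parp2, Mmp9 and Ly6a, are given because a value beside them needs them. Some listed relatives are not reported here. Python 3.11.15 with scipy 1.17.1 was used. TMM factors of edgeR 4.0.16 and size factors of DESeq2 1.42.0 served as scaling alternatives on the deposited counts.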

Additional observations from a re-analysis of the deposited data

Results flagged for a closer look

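The libraries gave opposite directions for a few contrasts, each with a counting interval that did not reach 0. The difference between libraries was not tested, since there was 1 library per genotype. Mutant Emp2 UMIs were bunched, as 67 cells outside the OC gate held 349 of the 854. Intervals that treat UMIs as independent may thus be too narrow here. These contrasts were not repeated without the largest cell. In cells of the cycling gate only over neither gate, Emp2 had a log2 ratio of 0.20 in the control library (0.15 to 0.25) and -0.38 in the mutant library (-0.63 to -0.14). Uchl1 had 0.05 (0.01 to 0.09) and -0.14 (-0.25 to -0.03) in the same contrast. The control Uchl1 value turned to -0.0208 at 2000 UMIs and to -0.0142 with at least 5 UMIs for a gate, where both libraries had the same sign. In cells with both G1/S and G2/M genes over cells with neither, Emp2 had 0.31 (0.24 to 0.39) and -0.70 (-1.02 to -0.38). In cells with a Ly6a UMI at 5000 UMIs over cells with none, Ccnb1ip1 had -0.55 in the control library (-0.68 to -0.43) and 0.28 in the mutant library (0.01 to 0.55).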

How the results depend on the processing

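The low mutant ratio, on which the 5 genes were selected, kept its sign under all 8 alternatives, which supports nothing beyond that selection. The median of the 5 genes, -2.92, was -2.81 with equal weight per cell and -3.14 with cells thinned to 5000 UMIs. The control median for OC-gate over neither-gate cells, 0.90, was 0.61 at 2000 UMIs, 0.97 at 10000 UMIs and 0.80 with at least 5 UMIs for a gate. The control median for cycling cells, 0.05, was -0.001 with at least 5 UMIs for a gate, where Uchl1 was -0.0142, and Uchl1 was -0.0208 at 2000 UMIs. The mutant median for at least 2 Arid1a UMIs against none, 0.58, was 0.73 with at least 3 UMIs and 0.26 with at least 1. With Arid1a read at 5000 UMIs (at least 1 against none) it was also 0.26, and Uchl1 turned to -0.0521. In cells of neither gate it was 0.31, and outside the OC gate, chosen after the data were seen, 0.36. The cause of these moves was not tested. Without a minimum level, 16614 genes were ranked, Emp2 was 22nd from the lowest and the other 4 lay further on, and without doublets Ccnb1ip1 had a mean of 20.1 CPM and was ranked 5. No paired analysis was possible because each genotype had 1 library. Depth limits Fxyd2 and Ccnb1ip1 most, with 438 and 659 mutant UMIs.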

Other observations

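Control cells with and without Ly6a differed in several of the 5 genes. In 944 control cells with a Ly6a UMI at 5000 UMIs, Uchl1 had 156 CPM (151 to 161) against 129 CPM (127 to 130) in the other 5157. Fxyd2 had 46.2 CPM (43.6 to 49.0) against 37.8 CPM. Ccnb1ip1 had 24.9 CPM (22.9 to 27.0) against 36.6 CPM. In the mutant library Uchl1 had 25.1 CPM (24.1 to 26.1) in 3829 cells with a Ly6a UMI and 16.5 CPM (15.2 to 17.9) in 1483 without, the same direction as in the control library. Mutant Emp2 had 6.69 and 6.15 CPM in these cells, a log2 ratio of 0.12 (-0.10 to 0.35).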
